A study of Mus musculus with 2 samples.

Results

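The miR-30 family of microRNA genes was examined in mouse hindbrain at embryonic day 15.5, the part of the brain that forms the cerebellum, pons and medulla. Its members were the genes Mir30a, Mir30b, Mir30c-1, Mir30c-2, Mir30d and Mir30e, found in the deposited count tables by their Ensembl identifiers, and they made up 6 of the 1973 genes listed. MicroRNA sequencing had been done on 2 biological replicates of the strain B6NCrl, healthy and with the sexes mixed: replicate 1 was a pool of 78 embryonic hindbrains and replicate 2 a pool of 62. The series holds 1 group, with no treatment, other tissue or other age, so the levels of the members and their spread between the pools are what it can show. Levels are given as CPM, counts scaled to a common total of 1000000 reads on the microRNA genes' own strand. Those strands held 3937840 reads in replicate 1 and 4839647 in replicate 2.

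A microRNA is cut from a hairpin precursor as a short single strand, which guides the Argonaute protein to messenger RNAs that pair with its seed, bases 2 to 8 from the 5′ end. Either side of the hairpin can give such a strand, named the 5p or the 3p arm. The miR-30 genes carry a common seed in the 5p arm and lie in 3 pairs. The family is known for restraint of the mesenchymal programme in epithelia, for control of Notch ligand Dll4 in vessels, for a role in heart and kidney, and, in the brain, for repression of the neurotrophin Bdnf.

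The mature sequences show what the members share, and RefSeq (GRCm38.p6) held them for 4 of the 6 genes. Mir30b and Mir30d are named here without sequence. The 5p arms follow, with the seed in capitals, together with that of Mir384, a gene of chromosome X outside the family.
miR-30a-5p (chr1:23272274-23272295, plus strand): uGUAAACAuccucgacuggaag
miR-30e-5p (chr4:120772660-120772681, minus strand): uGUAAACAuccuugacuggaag
miR-30c-5p (chr4:120769584-120769606, minus strand, and chr1:23291714-23291736, plus strand): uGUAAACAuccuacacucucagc
miR-384-5p (chrX:105344332-105344354, minus strand): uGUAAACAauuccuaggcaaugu

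These 4 arms, from 5 genes, were the complete set with this seed among the 1738 mature entries of the RefSeq table. Counted from 1 at the 5′ end, miR-30a-5p and miR-30e-5p differed by the single substitution C13U (miR-30a first). The miR-30c arm was identical to both over its first 12 bases and differed from each at 5 of the 22 positions compared. miR-384-5p matched the others over the first 8 bases only and differed from them at 10 to 12 positions. The same seed predicts overlapping sets of paired messenger RNAs, and the bases after it are where the arms diverge.

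The 3p arms fell into another pair of seed groups. They are shown because they are what tells the 2 miR-30c genes apart.
miR-30a-3p (chr1:23272315-23272336, plus strand): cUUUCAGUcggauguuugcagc
miR-30e-3p (chr4:120772618-120772639, minus strand): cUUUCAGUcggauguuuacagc
miR-30c-1-3p (chr4:120769546-120769567, minus strand): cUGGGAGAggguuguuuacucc
miR-30c-2-3p (chr1:23291754-23291775, plus strand): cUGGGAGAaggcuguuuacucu

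Between miR-30a-3p and miR-30e-3p the substitution was G18A (miR-30a first), so each arm of these 2 genes differs at 1 base. The miR-30c-1 and miR-30c-2 3p arms differed by G9A, U12C and C22U (miR-30c-1 first). The deposited counts are per hairpin gene, and no split of reads into 5p and 3p arms was available for any member.

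The 2 miR-30c hairpins share a stretch of 28 nt, shown in capitals, which contains the whole 5p arm.
Mir30c-1 (chr4:120769534-120769622, minus strand): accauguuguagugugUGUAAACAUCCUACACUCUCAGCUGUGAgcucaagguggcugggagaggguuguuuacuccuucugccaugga
Mir30c-2 (chr1:23291701-23291784, plus strand): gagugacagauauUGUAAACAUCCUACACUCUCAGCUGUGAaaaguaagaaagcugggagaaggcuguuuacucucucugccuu

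A read from within that stretch matches both loci, and the deposited tables list reads placed at several loci apart from the genes. That such reads were given to no gene is inferred from this layout, as no label names the counter. Those reads were 35.4% of the library in replicate 1 and 34.2% in replicate 2. They outnumbered the reads of the whole miR-30 family by 20.0 to 1 and 19.6 to 1, and how many of them are miR-30c is not known. The levels of Mir30c-1 and Mir30c-2 are uncertain for that reason, and so is the order of both against the other members. Mir30a and Mir30e shared at most 18 nt with another annotated microRNA hairpin, in each case with the other, and neither of their arms occurs whole in another hairpin. Mir30b and Mir30d were not examined for shared stretches.

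Together the 6 genes held 3.73% (95% exact interval 3.72 to 3.75) of the gene reads in replicate 1 and 3.79% (3.78 to 3.81) in replicate 2. The mean was 3.76% ± 0.0428 (SD, n = 2). As a share of all reads it was 1.76%, and with reads placed at several loci added to the gene reads it was 2.16%. These intervals, like all others here, cover counting error only; the labels name no molecular identifiers, so reads may not be independent molecules. Of the reads counted for these genes, Mir30e, Mir30a and Mir30d carried nearly all, with 99.4% and 99.5% in the 2 pools. Any miR-30c reads left among those placed at several loci would lower these shares, by an amount not known. Mir30b, Mir30c-1 and Mir30c-2 together had 810 reads in replicate 1 and 980 in replicate 2.

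Mir30e (ENSMUSG00000065409.1; chr4:120772606-120772697, minus strand, mm10) was the highest member. It lies in an intron of Nfyc, the gene of a subunit of the CCAAT-binding factor NF-Y, on the same strand. Its 73623 reads in replicate 1 and 91461 in replicate 2 correspond to 18696 and 18898 CPM. Its mean was 18797 ± 143 CPM (SD, n = 2), a spread of 0.760% of the mean, and it stood at rank 13 of all genes in both pools. It alone held 50.1% and 49.8% of the family's counted reads, a share with the same limit.

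Mir30a (ENSMUSG00000065405.2; chr1:23272269-23272339, plus strand), studied in human tumour cells as a repressor of the autophagy gene Beclin 1, came next. No other gene is annotated over it in GENCODE M21. It had 39123 and 47732 reads, or 9935 and 9863 CPM, with a mean of 9899 ± 51.2 (SD, n = 2). Mir30d (ENSMUSG00000065437.1; chr15:68341208-68341289, minus strand), which overlaps an exon of the lincRNA Gm20732, had 33501 and 43489 reads. Its levels were 8507 and 8986 CPM, with a mean of 8747 ± 338 (SD, n = 2).

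The other 3 members were far lower. Mir30b (ENSMUSG00000065476.2; chr15:68337415-68337510, minus strand), in an exon of the noncoding transcript Gm26621, had 417 and 468 reads, or 106 and 96.7 CPM. Mir30c-1 (ENSMUSG00000065490.1), also in an intron of Nfyc, had 208 and 278 reads, or 52.8 and 57.4 CPM. Mir30c-2 (ENSMUSG00000065567.1), in an exon of the lincRNA Gm27028, had 185 and 234 reads, or 47.0 and 48.4 CPM. If reads placed at several loci were given to no gene, as the layout of the tables implies, the counts of both miR-30c genes leave them out.

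**Figure D1:**
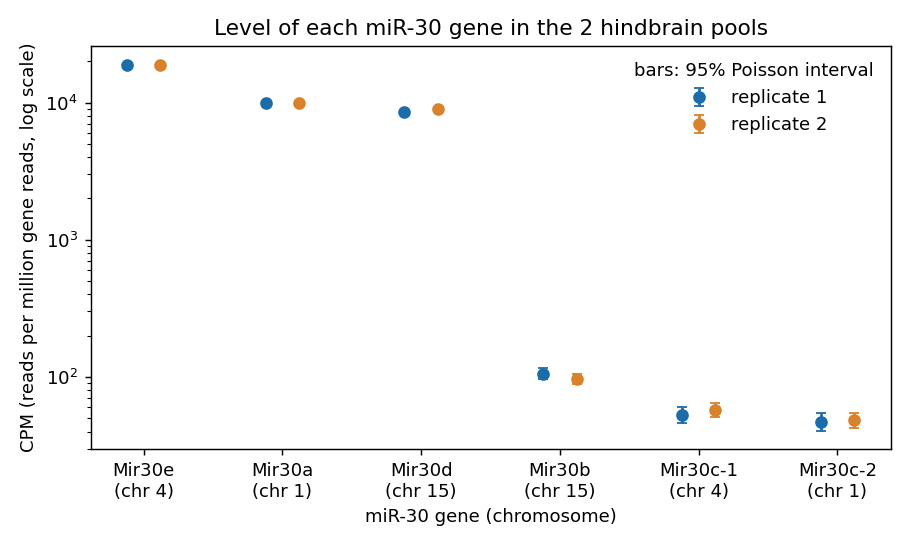
CPM of each miR-30 gene on a log scale, with 1 point for each pool (replicate 1 left, replicate 2 right) and 95% Poisson intervals from the counts as bars; the bars of the 3 highest genes are smaller than the points. Mir30e, Mir30a and Mir30d sit between 8507 and 18898 CPM, and Mir30b, Mir30c-1 and Mir30c-2 between 47.0 and 106 CPM, in both pools.

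The order Mir30e, Mir30a, Mir30d, Mir30b, Mir30c-1, Mir30c-2 was the same in both pools, and no neighbouring pair overlapped in its range of CPM over the 2 pools. The gaps differed in size. Mir30e exceeded Mir30a 1.88-fold in replicate 1 and 1.92-fold in replicate 2, and Mir30d exceeded Mir30b 80.3-fold and 92.9-fold. Mir30a exceeded Mir30d only 1.17-fold and 1.10-fold. The biological coefficient of variation, estimated between the pools over all genes tested, was 10.5%. It describes the spread of a gene between pools and does not measure a ratio of 2 genes within a library. Mir30c-1 exceeded Mir30c-2 1.12-fold and 1.19-fold, and their 95% Poisson intervals overlapped in both pools (45.9 to 60.5 against 40.5 to 54.3 CPM in replicate 1). With 2 values a gene, an exact permutation test of 2 genes cannot give a two-sided p below 0.33, so no p is given for this order. A short read spans a mature strand whatever the hairpin's length, so counts were not divided by length. Whether the order of molecules is that of reads was not tested.

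Each cluster paired a gene of high count with one of low count. On chromosome 4, where 2983 bases separate the genes, Mir30e exceeded Mir30c-1 354-fold in replicate 1 (95% exact interval 309 to 408) and 329-fold in replicate 2 (292 to 371). On chromosome 1, with 19361 bases between them, Mir30a exceeded Mir30c-2 211-fold (183 to 246) and 204-fold (179 to 233). On chromosome 15, with 3697 bases between them, Mir30d exceeded Mir30b 80.3-fold (72.9 to 88.7) and 92.9-fold (84.8 to 102).

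In each cluster the intervals of the 2 pools overlapped. In the first 2 of these pairs the low gene is a miR-30c gene, whose 5p arm matches both miR-30c loci, and the ratios there are uncertain for that reason. In the third pair the low gene is Mir30b. Neither gene of that pair was examined for shared stretches, so the same limit could hold there. By cluster, chromosome 4 gave 50.2% and 49.9% of the family's reads, chromosome 1 gave 26.7% and 26.1%, and chromosome 15 gave 23.1% and 23.9%.

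**Figure D2:**
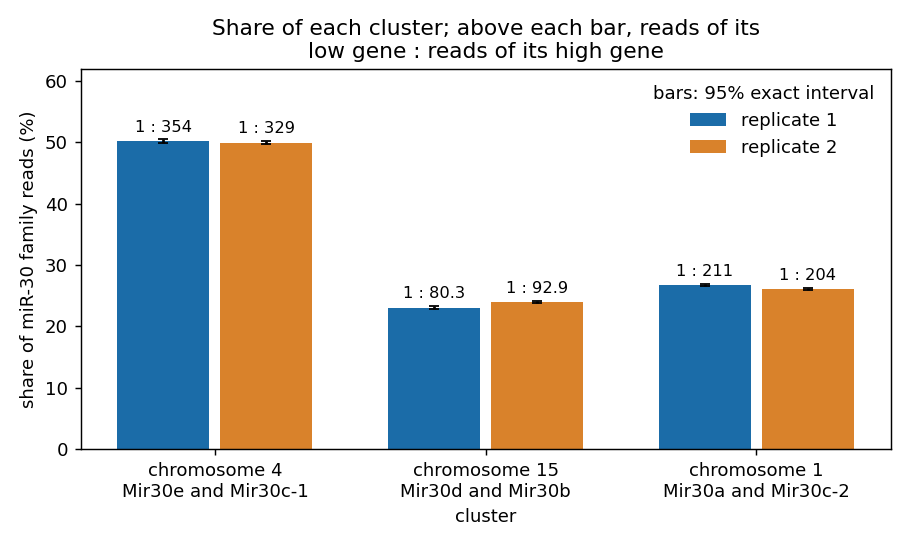
Share of miR-30 family reads from each cluster, in percent, with replicate 1 left of replicate 2 and 95% exact intervals as bars; the text above each bar gives the reads of the cluster's low gene to those of its high gene. Chromosome 4 holds about as many reads as the other clusters together, and every low gene has under 2% of its cluster.

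Among all microRNA genes 3 of the family's members stood near the top. The other 3 stood near the middle of the 426 genes that reached 10 reads in a library. Mir30e, Mir30a and Mir30d were at ranks 13, 17 and 20 by mean CPM, among the 97 genes that averaged 1000 CPM or more. Mir30b was at rank 208, Mir30c-1 at 243 and Mir30c-2 at 246, on both sides of the median of 95.3 CPM across the 426 genes that reached 10 reads in a library. Mir384 (ENSMUSG00000065499.1; chrX:105344282-105344369, minus strand), which shares the seed and is known from mouse hippocampus for a part in long-term potentiation, lay between those groups at rank 148. It had 1207 and 1432 reads, or 307 and 296 CPM, so its counts exceeded those of each of the 3 low members in both pools. They stood below those of each of the 3 high ones. For Mir30c-1 and Mir30c-2, the ranks and the place below Mir384 are uncertain because of the reads placed at several loci.

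**Figure D3:**
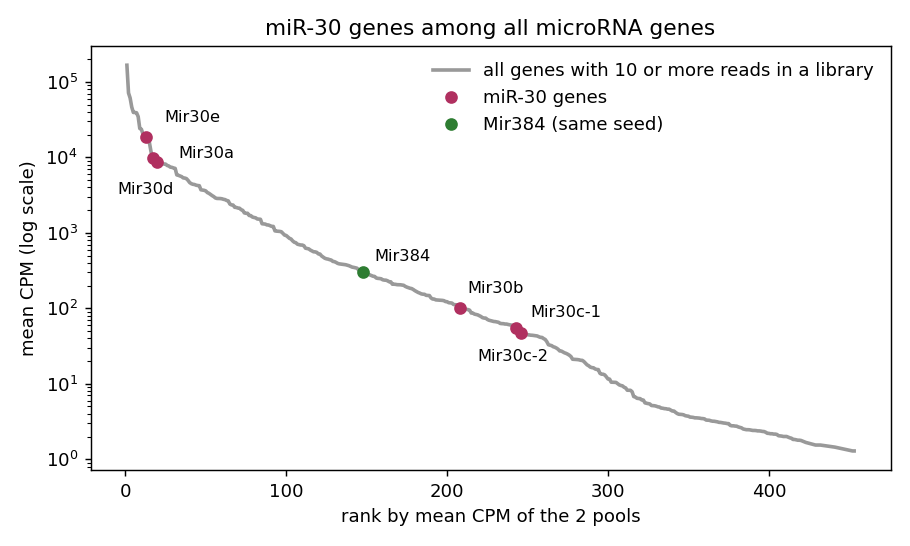
Mean CPM of the 2 pools on a log scale against rank, for genes that reached 10 reads in a library (grey line), with the 6 miR-30 genes in red and Mir384 in green. Mir30e, Mir30a and Mir30d are within the first 20 ranks, and Mir30b, Mir30c-1 and Mir30c-2 lie from rank 208 to 246.

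The genes closest in level to each member were found by the Euclidean distance of log2(CPM + 1) over the 2 pools. With 2 values a gene this measures a like level and nothing more. Closest to Mir30e were Mir149 (distance 0.16; 20547 and 20127 CPM), Mir99b (0.17; 20916 and 19329 CPM) and Mir17 (0.21; 17981 and 16432 CPM). Closest to Mir30a was Mir23b (0.064; 10061 and 9455 CPM), and closest to Mir30d was Mirlet7d (0.098; 8910 and 8554 CPM). For the low members they were Mir6540 for Mir30b (0.070), Mir192 for Mir30c-1 (0.15) and Mir92-2 for Mir30c-2 (0.095).

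Levels of 3 other multi-gene families, also known to increase as neural cells mature, were set beside miR-30. The miR-26 family of 3 genes held 1.61% and 1.52% of the gene reads, of which Mir26b made up 99.9% and 99.8%. The 2 miR-101 genes held 0.174% and 0.181%, led by Mir101b with 1290 and 1333 CPM and followed by Mir101a with 448 and 473 CPM. The 4 miR-29 genes held 0.0242% in each pool, with Mir29a at 129 and 129 CPM and Mir29c at 111 and 108 CPM. The miR-30 share was thus 2.32 and 2.49 times that of miR-26, and 154 and 157 times that of miR-29.

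Some genes of these families share a whole arm too, and whether that bears on their counts was not tested. Mir26a-1 (15 and 31 reads) and Mir26a-2 (73 and 132 reads) share 25 nt that include the whole 5p arm. Mir29b-1 (2 and 9 reads) and Mir29b-2 (5 and 11 reads) share 25 nt that include the whole 3p arm. Mir29c shares 22 nt with Mir29b-1, and Mir101a and Mir101b share 20 nt. The family shares are uncertain for these genes as they are for miR-30c, and no test between families was run on these 2 libraries.

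The 2 pools were then compared, as log2 ratios of replicate 1 over replicate 2 after TMM scaling, which is a scaling of the libraries to a common composition. With 1 library on each side the differences have no replicate check. The exact binomial test, adjusted by Benjamini-Hochberg across the genes tested, sets these libraries against each other and sees no error other than counting error. It called 153 of 426 genes, or 35.9%, and 2 of the 6 members. Higher in replicate 1 were 20.7% of all genes and 1 member, and lower were 15.3% of all genes and 1 member. Mir30d was lower in replicate 1, with a log2 ratio of -0.06 (95% exact interval -0.08 to -0.04; adjusted binomial p = 1.97e-08), and it kept that sign under every scaling tried.

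Mir30a had a log2 ratio of 0.03 (0.01 to 0.05; adjusted binomial p = 0.0170) in this scaling. It was no longer called with DESeq2 size factors, total counts or counts of both strands, and it took the other sign, uncalled, when genes were admitted from 1 read or only from 100. Mir30e had a log2 ratio of 0.0014 (-0.01 to 0.02; adjusted binomial p = 0.922). Its sign changed with the scaling too, and with the other minimum counts it was called at -0.03. The intervals of Mir30b at 0.15 (-0.05 to 0.34), Mir30c-1 at -0.10 (-0.37 to 0.16) and Mir30c-2 at -0.02 (-0.31 to 0.26) all included 0.

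The median size of the log2 ratio was 0.04 over the 6 members, 0.11 over the 97 genes of 1000 CPM or more, 0.10 over the 208 genes of 100 CPM or more and 0.17 over all 426 genes. The 3 high members lay below each of these other medians, and Mir30b exceeded those of the 97 and the 208 genes, Mir30c-1 that of the 208. When a coefficient of variation of 0.1 was assumed for every gene, close to the estimated 10.5%, edgeR's exact test called 6 genes (1.41%) and none of the members. At an unadjusted p under 0.05 it gave 32 of the 426 genes and 0 of the 6 members. The 10.5% was estimated from the difference between these same pools, so few calls follow from that setting by construction. Mir384 had a log2 ratio of 0.07 (-0.04 to 0.18; adjusted binomial p = 0.395) and was not called.

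**Figure D4:**
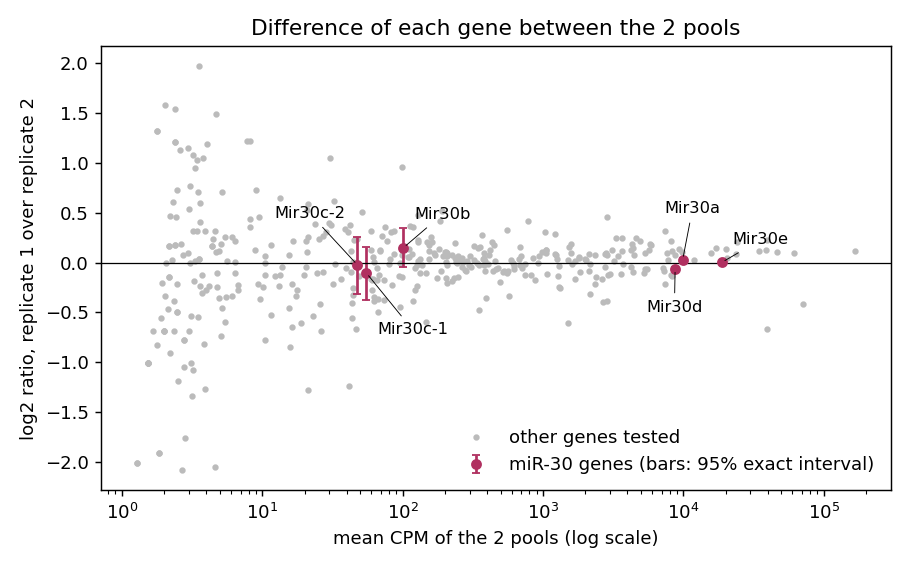
Log2 ratio of replicate 1 over replicate 2 against mean CPM on a log scale. Genes shown had at least 10 reads in a library and reads in both pools. Other genes are in grey and miR-30 genes in red (bars: 95% exact intervals, counting error only). The 6 members lie between -0.10 and 0.15, and the 3 highest within 0.06 of 0.

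Marker lists for hindbrain and other cells that the dissection could hold all differed more between the pools than the family's share of reads did. Some lists rest on few reads, such as Mir122 with 140 and 276, where counting error is larger. A steady share is not particular to miR-30, as that of miR-29 was 0.0242% in each pool. The hindbrain and neural list (11 of 12 genes) was led by the Hox-cluster gene Mir10a. It summed to 99480 CPM in replicate 1 and 140076 in replicate 2. Mir10a (60695 and 81827 CPM) and Mir10b (30176 and 48577 CPM) held most of that sum. Its difference between the pools is thus mainly theirs, and says little of the other genes on the list. Among those, Mir218-2 (137 and 120 CPM) and Mir124a-3 (2.54 and 1.86 CPM, from 10 and 9 reads) were higher in replicate 1. Neither was called by the binomial test. The rest were lower in replicate 1. Of these Mir137 (7910 and 8811 CPM), Mir9-3 (506 and 646 CPM) and Mir196b (24.4 and 58.1 CPM) were called. Mir9-2, Mir124a-1, Mir124a-2 and Mir218-1 were not. The choroid plexus and ciliated epithelium list (7 of 7 genes) summed to 5613 and 7172 CPM, and endothelial Mir126a (1 of 1) stood at 25702 and 22600 CPM. The mesenchymal list (6 of 6) was at 6623 and 5913 CPM, the leukocyte list (3 of 3) at 478 and 377, and the erythroid list (2 of 2) at 173 and 125. Other epithelium (7 of 7) was at 566 and 653 CPM, and liver Mir122 (1 of 1) at 35.6 and 57.0. Striated muscle (7 of 8) was at 43.9 and 57.4 CPM, with Mir133b, Mir133a-1, Mir133a-2 and Mir1a-1 at 0 reads. No gene of the marker lists was examined for shared stretches, so the limit given for miR-30c could hold for them too. That includes the Mir124a and Mir9 genes of the neural list, and the sums of the lists are uncertain for that reason. The 0 reads of the striated muscle genes therefore cannot show that the microRNA, or muscle, was absent. As the tissue is bulk, fewer cells of a type and less RNA per cell cannot be told apart, and the part of these cells in the miR-30 levels was not tested.

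No member had a read on the opposite strand in either pool, where 0 reads leave room for a level of at most 0.762 CPM (replicate 1) or 0.620 CPM (replicate 2), the worth of 3 reads. For Mir30e that is the strand of Mir30f, a gene annotated over the same 92 bases in the opposite direction, which has no count of its own here. Ambiguous reads, which fit more than 1 gene, were listed at 0 in both tables.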

How the data were processed

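For each library the authors deposited read counts in 1 table, on mm10 with the GENCODE M4 annotation per the labels and deposited notes. The sources used here name no aligner, trimming step or counter. Each gene row holds 3 counts: both strands, 1 strand and the other. Of the single strands, that with more reads in all was used as the genes' own. Library sizes leave out 4 summary rows. These held 13.7% and 15.8% unmapped reads, 35.4% and 34.2% placed at several loci and 2.56% and 2.96% outside the genes, of 8327917 reads in replicate 1 and 10507754 in replicate 2.

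Symbols and positions came from GENCODE M21 (GRCm38, the build of mm10), which named 1894 of 1973 identifiers. Genes with at least 10 reads in a library were tested after TMM scaling (edgeR 4.0.16, R 4.3.3) by an exact two-sided conditional binomial test with Benjamini-Hochberg adjustment, threshold 0.05. The test was checked on simulated data drawn with counting error only. That check says nothing of its calls where pools differ by more than counting error. Shares have Clopper-Pearson 95% intervals and levels Poisson intervals (scipy 1.17.1, Python 3.11.15). Shared stretches were searched in M21 microRNA transcripts on either strand, leaving out Mir30f, which lies over Mir30e. Sequences came from RefSeq.

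The members, comparison families and marker lists were chosen with earlier results of these data known. Named genes were the members, genes with the same seed, the comparison families, the gene nearest in level to each member (3 for the highest) and each marker list's leading gene. Some other genes of the marker lists were named for their part in a sum, for the direction of their difference or for 0 reads. Alternatives were DESeq2 1.42.0 size factors, total counts, both strands, minimums of 1 and 100 reads, other denominators, assumed coefficients of variation of 0.1 and 0.2, and leaving out each replicate.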

Additional observations from a re-analysis of the deposited data

How the results depend on the processing

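The family's share of gene reads, 3.76%, became 3.68% over both strands, 2.16% of gene reads and reads placed at several loci together, and 1.76% of all reads. Without 1 replicate it ranged from 3.73% to 3.79%. For the shares within the family and the ratios within clusters counting both strands or leaving out a replicate says nothing of stability, since no member has opposite-strand reads and dropping 1 of 2 replicates always moves a mean by less than the SD. The log2 ratio of Mir30a, 0.03 and called, was uncalled at 0.0126 with DESeq2 size factors, 0.0106 with total counts and 0.0199 over both strands, at -0.0038 with a minimum of 1 read and at -0.00067 with one of 100. Mir30e, at 0.0014, became -0.0134 with DESeq2 size factors, -0.0155 with total counts, -0.0062 over both strands, -0.0298 with a minimum of 1 read and -0.0267 with one of 100 (called under both minimums only). With an assumed coefficient of variation of 0.1 or 0.2, Mir30a at 0.0274 and Mir30d at -0.0621 were uncalled, by construction of a wider assumed spread. The members called numbered 2, and 1 with DESeq2 size factors, total counts or both strands, and 0 with either coefficient. With a minimum of 1 or of 100 reads they numbered 2 again, but were Mir30d and Mir30e. The genes called numbered 153 of 426, 152 with DESeq2 size factors, 149 with total counts and 163 of 437 over both strands. They numbered 137 of 721 with a minimum of 1 read and 150 of 281 with one of 100. With the coefficients they numbered 6 at 0.1 and 0 at 0.2, where edgeR gave 12 genes with an unadjusted p under 0.05. Of the genes called, 57.5% were higher in replicate 1, and 47.4% of those called with a minimum of 1 read. No paired analysis was possible because the series holds 1 group. For the other changes the cause was not tested. Depth limits the low members, with 185 to 468 reads each.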
